A study of Homo sapiens with 19 samples.

Results

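The RNA helicases named here are the genes whose symbol begins with DDX or DHX followed by a number and that have at least 1 skipped exon event in the deposited splicing tables, with antisense and pseudogene symbols left out. The rule found 49 of the 11701 genes with such an event, and it used no measured change. A gene level could be tested for 41 of them, among 9014 genes in all. The 8 others (DDX10, DDX18, DDX20, DDX39A, DDX51, DDX56, DDX60 and DHX16) had no skipped exon event measured in all comparisons. All 49 gene IDs matched the Gencode annotation, but DDX26B carries the name INTS6L there, an Integrator subunit name and not a helicase name, so it is a member by its old symbol alone. DDX58 is the older symbol of RIGI.

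DEAD and DEAH box proteins use ATP to separate short RNA duplexes or to pull proteins off RNA, and they are named after the D-E-A-D or D-E-A-H residues of their ATPase core. Spliceosomal members such as DDX46, DHX38 and DHX15 drive the steps at which the spliceosome exchanges its RNA partners, whereas a large set of nucleolar members remodels pre-ribosomes. DDX5, DDX17 and DHX9 act as co-regulators of both transcription and splicing, DDX6 represses and helps to decay mRNAs in the cytoplasm, and the RIG-I-like proteins sense double-stranded RNA in antiviral defence.

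The cells were HMLE/Twist-ER, human mammary epithelial cells immortalized with hTERT and SV40 large T antigen that carry a Twist transcription factor fused to the estrogen receptor ligand domain. Without tamoxifen they are epithelial (EPI), and with 20 nM tamoxifen Twist drives them through an epithelial-mesenchymal transition (EMT) to a mesenchymal state (MES). Lines were made stable for a lentiviral control shRNA or an shRNA against AKAP8, a nuclear RNA-binding protein. RNA-seq was given for 3 EPI control, 3 EPI knockdown, 3 MES control and 2 MES knockdown libraries, biological replicates by the study's methods, and AKAP8 eCLIP, a crosslinking assay of protein binding sites on RNA, for both states. All groups share the Twist-ER transgene, and all RNA-seq groups a lentiviral shRNA. Nothing in the tables numbers the libraries within a group, and they are named here by their place in the list.

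Each measure came from junction reads, the reads that support an exon being included or skipped. A gene level is the sum of these reads over the gene's skipped exon events, divided by a size factor per library, and is called scaled junction reads. A read that supports several events was counted more than once, and a gene level could also move if its splicing moved. Changes were tested on log2(scaled reads + 1) with limma over 11 libraries, and p-values were adjusted over the 9014 genes by the Benjamini-Hochberg method. The libraries held 22031710 to 24468988 such reads in EPI control, 21198882 to 26581879 in EPI knockdown, 22491681 to 25613678 in MES control and 26538917 to 28261544 in MES knockdown cells. The second listed EPI knockdown library stood apart from the others, with a lowest correlation of 0.9675 to its group. In bulk RNA, fewer cells that carry a transcript and less transcript per cell cannot be told apart.

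AKAP8 itself stood at 243.8, 309.9 and 245.0 scaled junction reads in EPI control and at 120.7, 98.8 and 124.8 in EPI knockdown cells. In MES cells it stood at 382.3, 195.8 and 247.7 in the controls and at 108.3 and 121.9 in the knockdown. The groups did not overlap in either state, with a log2 change of -1.21 ± 0.25 (SE, limma adjusted p = 0.0664) in EPI and -1.20 ± 0.28 (limma adjusted p = 0.0322) in MES cells. The state labels were checked on markers: CDH1 (log2 change -4.34) and ESRP1 (-4.05) were lower in MES control than in EPI control cells, while VIM (1.77) and FN1 (1.86) were higher, each at an adjusted p of at most 0.00177.

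The first question was which helicases differ in level between the epithelial and the mesenchymal state. In control cells, 6 of the 41 helicases passed an adjusted p of 0.05 between MES and EPI, 3 higher and 3 lower, against 23.9% of all genes tested. DDX5, DHX9 and DDX42 rose in the mesenchymal state, and DDX54, DDX59 and DHX32 fell. None changed by more than 2-fold, a size that together with the adjusted p was reached by 12.5% of all genes. At an unadjusted p under 0.05 there were 4 helicases higher and 5 lower, against 1610 and 1662 of all 9014 genes.

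**Figure D1:**
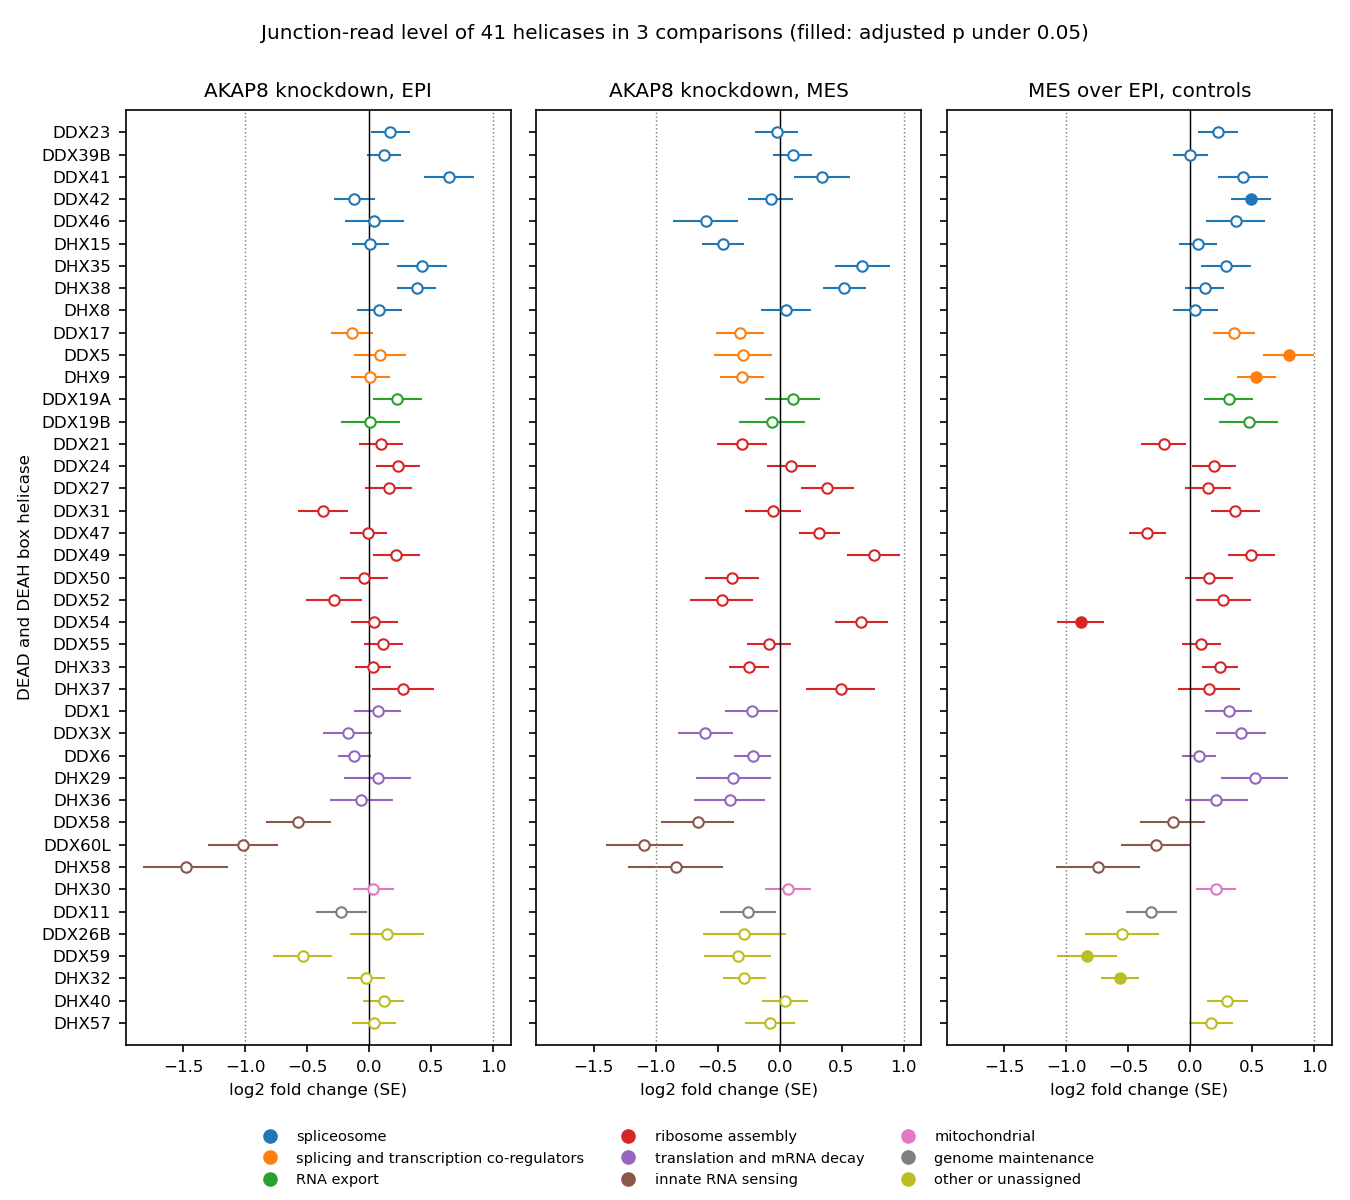
Log2 change of gene level (x axis, with its SE) for the 41 tested helicases (y axis, ordered by role) in 3 panels, 1 per comparison; filled points passed an adjusted p of 0.05 in limma. Filled points stand only in the EMT panel, for DDX5, DHX9 and DDX42 above 0 and for DDX54, DDX59 and DHX32 below 0.

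DDX5, also called p68, is a co-regulator of transcription and an alternative splicing factor. Its scaled junction reads were 4249.1, 3523.2 and 4132.7 in EPI control and 8957.5, 5901.7 and 6106.7 in MES control cells. All MES values were above all EPI values, and the first listed MES library was the highest. The log2 change was 0.79 ± 0.21 (limma adjusted p = 0.0145), which is the largest rise among the 6.

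DHX9, also called RNA helicase A, unwinds double-stranded RNA and bridges transcription factors to RNA polymerase II. It went from 1718.6, 1855.6 and 1757.7 scaled reads in EPI to 2719.9, 2716.2 and 2309.3 in MES control cells, again without overlap. Its change was 0.54 ± 0.16 on the log2 scale (limma adjusted p = 0.0271). DDX17, the close paralog of DDX5, stood at 3706.6, 2703.7 and 4205.1 in EPI and at 4242.1, 4036.1 and 5123.4 in MES control cells. The DDX17 groups overlapped, and its change of 0.35 ± 0.17 had an adjusted p of 0.156. All 3 co-regulators thus had values above 0, with a median of 0.54.

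DDX42, also called SF3b125, binds the SF3b part of the U2 snRNP. It read 1004.4, 1142.3 and 1036.0 in EPI and 1680.9, 1523.9 and 1290.1 in MES control cells, and the groups did not overlap. Its log2 change was 0.49 ± 0.16 (limma adjusted p = 0.0439). All 9 tested spliceosomal helicases had EMT values at or above 0.00, with a median of 0.22, but DDX42 alone of them passed the test, and 3 of the 9 (DDX39B, DHX8 and DHX15) were below 0 when total reads set the scale. DDX39B (0.00 ± 0.14), an ATPase of spliceosome assembly and mRNA export, and DHX15 (0.06 ± 0.15), which takes the spliceosome apart, lay at the low end.

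DDX54, a nucleolar protein of ribosome assembly that also binds nuclear receptors, fell the most. Its scaled reads were 1177.0, 1426.6 and 953.3 in EPI and 667.5, 617.1 and 615.5 in MES control cells, with no overlap. The log2 change was -0.89 ± 0.19 (limma adjusted p = 0.00427). Among the 12 tested ribosome assembly helicases 9 had values above 0 (8 by total reads) and DDX54 was the single member that passed. DDX21, which couples RNA polymerase I transcription to ribosomal RNA processing, had -0.21 ± 0.18 (adjusted p = 0.421).

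DDX59 was lower in MES cells too, at 453.4, 305.0 and 433.2 in EPI against 269.5, 214.2 and 183.4 in MES control cells. DHX32, a DEAH box protein without a settled function, read 503.6, 548.0 and 547.0 in EPI and 334.2, 364.1 and 378.4 in MES control cells. Neither pair of groups overlapped. The log2 changes were -0.83 ± 0.24 for DDX59 (limma adjusted p = 0.024) and -0.57 ± 0.15 for DHX32 (limma adjusted p = 0.0164).

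**Figure D2:**
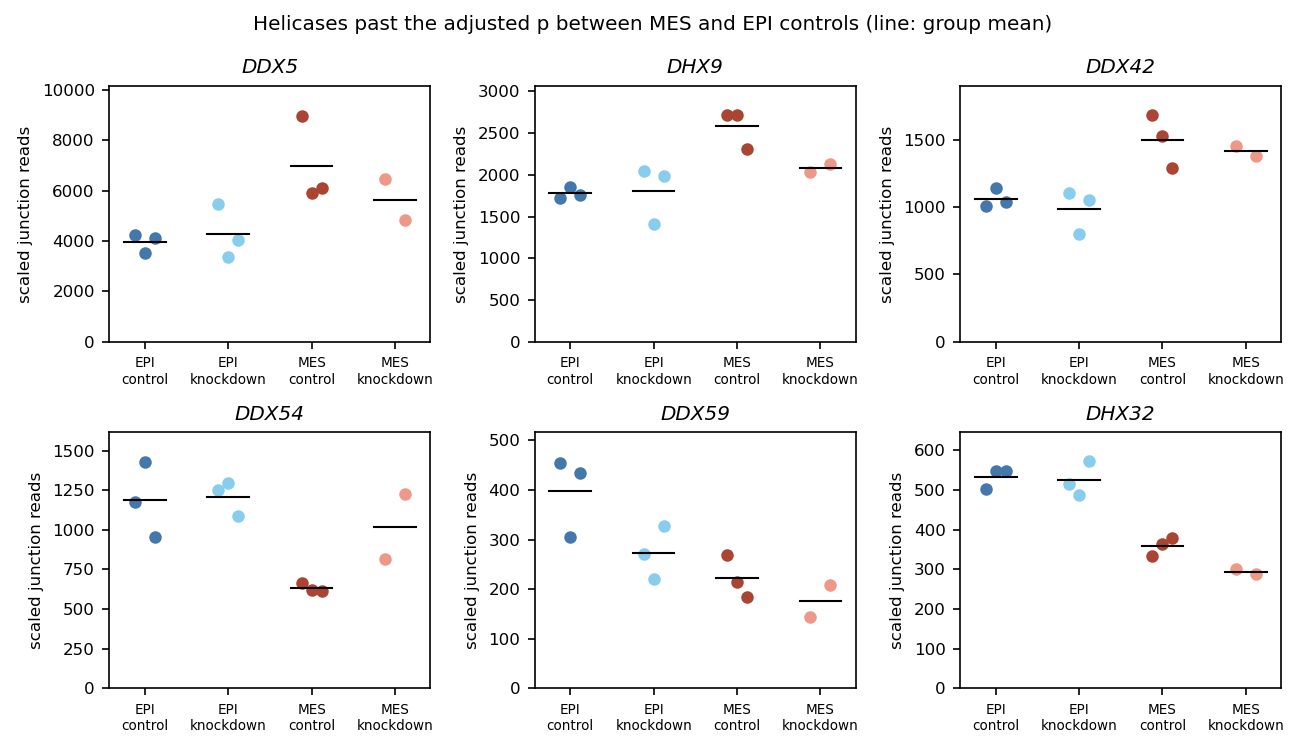
Scaled junction reads (y axis) of the 6 helicases past the adjusted p in EMT, 1 panel per gene, with 1 point per library in each of the 4 RNA-seq groups (x axis) and a line at the group mean. DDX5, DHX9 and DDX42 lie higher in MES control than in EPI control cells, and DDX54, DDX59 and DHX32 lie lower, without overlap of these groups.

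The 6 calls were not equally firm. DDX54 kept an adjusted p of at most 0.0238 whichever library was left out. Without 5 of the 6 libraries in turn DHX9 and DDX42 no longer passed (highest adjusted p = 0.103 and 0.167), the exception being the third listed MES control library. DDX59 and DHX32 each passed without 2 of the 6 libraries and missed otherwise (highest adjusted p = 0.105 and 0.0658), and DDX5 missed without the second listed EPI or the first listed MES control library (0.0576 and 0.0777). Scaling by total junction reads moved the EMT median of all genes by -0.11, and on that scale the split of helicases past the adjusted p changed from 3 higher and 3 lower to 0 higher and 4 lower, with adjusted p = 0.073 for DDX5, 0.146 for DHX9 and 0.188 for DDX42. The helicase median was 0.19 against 0.01 for all genes by the size factors, and total reads shifted both alike, to 0.08 and -0.10. FN1 alone, summed over 35 skipped exon events, had means of 1101000 scaled reads in EPI and 3897000 in MES control cells. Total reads include these, and the part of FN1 in the shift was not tested. Values above 0 were found for 31 of the 41 helicases by the size factors and for 26 by total reads. The EPI and MES control groups did not overlap for 17 of 41 helicases, against 45.7% of all genes.

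Of the cytoplasmic helicases, all 5 in translation and mRNA decay (DDX1, DDX3X, DDX6, DHX29 and DHX36) had EMT values above 0, from 0.07 to 0.52, and none passed. On the scale of total reads DDX6 was below 0 and the other 4 above. DDX3X, which unwinds structured 5′ ends of mRNAs for translation, had 0.41 ± 0.20, DHX36, which resolves G-quadruplexes, 0.21 ± 0.26, and DDX6 0.07 ± 0.14. DDX39A, a paralog of the export factor DDX39B, had no gene level from skipped exons, but with all 5 event types summed it stood at 730.4, 819.8 and 713.8 in EPI and 1333, 1097.8 and 1029.7 in MES control cells. These groups did not overlap, and its log2 change on that scale was 0.61 ± 0.16 (limma adjusted p = 0.0134). On the same scale DDX18 had 0.10 ± 0.24 (limma adjusted p = 0.808) and DDX56 0.23 ± 0.18 (0.39), and neither passed. DDX39A was named after its values were seen.

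Helicases work with partners, among them G-patch activators, exon junction complex proteins and nuclear pore docking sites. From a list of these, 32 genes were tested, and in EMT 7 rose and 1 fell, 8 in all against 23.9% of all genes, with a list median of 0.12. The G-patch proteins SUGP1 (0.79 ± 0.18), GPATCH11 (0.75 ± 0.25) and GPATCH4 (0.63 ± 0.16) rose. So did CASC3 of the exon junction complex (0.65 ± 0.15), EIF4G2 (0.54 ± 0.16), the DDX19 docking nucleoporin NUP214 (0.54 ± 0.17) and the export adaptor ALYREF (0.49 ± 0.16). Their limma adjusted p-values ran from 0.00604 (CASC3) to 0.0435 (ALYREF). Partner values by total reads, the scale on which no helicase rise passed, are not given. PDCD4, an inhibitor of the translation helicase eIF4A, fell (-0.45 ± 0.15, adjusted p = 0.0478). In EPI knockdown cells 0 partners passed by limma, and 2 had an unadjusted p under 0.05, against 889 of all 9014 genes. In MES knockdown cells 1 passed, against 4.16% of all genes: EIF4G3, a scaffold that binds eIF4A, fell (-0.69 ± 0.18, limma adjusted p = 0.049). Of 11 tested helicases of the same superfamily with other symbols, such as EIF4A1 and SNRNP200, 0 passed by limma in any of the 3 comparisons. At an unadjusted p under 0.05 there were 0 in EPI knockdown, 3 in MES knockdown and 2 in EMT. Over all 9014 genes there were 889, 1963 and 3272.

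The second question was whether loss of AKAP8 moved helicase levels. In EPI cells 0 of 41 helicases passed the adjusted p by limma, against 0.255% of all genes, or 0.189% that also changed over 2-fold. At an unadjusted p under 0.05 there were 2 higher and 4 lower, against 415 and 474 of all 9014 genes. The median was 0.04 against -0.01 over all genes. Its sign turned without the first listed (-0.01) or the third listed (-0.03) EPI knockdown library. The libraries at the same place in the EPI control and EPI knockdown lists deviated together, so a model with a block per place was also fitted. This model also held blocks for the MES places, which are not shown to pair. It estimated a common spread per gene over both states. With the block 3 helicases passed, against 3.06% of all genes, and 2 of them also changed over 2-fold, against 0.799% of all genes. These were DHX58 and DDX60L, both lower, and, under 2-fold, DDX41, higher. None of the 3 passed when any pair of libraries at the same place was left out: without the second pair the blocked changes were -1.64 for DHX58 (adjusted p = 0.0968), -0.90 for DDX60L (0.0574) and 0.59 for DDX41 (0.0814).

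DHX58 encodes LGP2, a RIG-I-like sensor that lacks the signalling domains of RIG-I and regulates RIG-I and MDA5. Its scaled junction reads were 97.7, 83.6 and 62.0 in EPI control and 18.2, 36.9 and 32.3 in EPI knockdown cells, all below the controls. In MES cells they were 55.9, 39.8 and 47.4 in the controls and 21.1 and 32.0 in the knockdown, which did not overlap either. The log2 change was -1.48 ± 0.34 in EPI (limma adjusted p = 0.0938, or 0.0498 with the block) and -0.84 ± 0.38 in MES cells (0.222).

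DDX60L is a paralog of the antiviral helicase DDX60. It read 241.9, 206.6 and 346.4 in EPI control and 127.4, 85.8 and 188.3 in EPI knockdown cells, and 225.4, 209.1 and 206.6 in MES control against 93.0 and 106.9 in MES knockdown cells. Every knockdown value lay under every control value of the same state. Its change was -1.02 ± 0.28 in EPI (limma adjusted p = 0.189, or 0.016 with the block) and -1.09 ± 0.31 in MES cells (0.0677). DDX58, the sensor RIG-I, stood at 292.1, 234.2 and 353.6 in EPI control and 280.7, 129.7 and 200.8 in EPI knockdown cells, which overlapped. In MES cells it stood at 269.5, 279.5 and 239.3 against 159.1 and 171.9, without overlap. Its changes of -0.57 ± 0.26 in EPI and -0.66 ± 0.29 in MES cells had limma adjusted p-values of 0.503 and 0.21.

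The 3 sensors were thus below 0 in both knockdown comparisons, and in the fit without the block none passed the adjusted p in either. These comparisons have no RNA-seq library in common. The study used its control and AKAP8 shRNA lines in both states, however, and the fit estimated a common spread per gene. Without the second listed EPI knockdown library, the EPI changes in the fit without the block were -1.68 for DHX58, -0.74 for DDX60L and -0.28 for DDX58. DDX60, for which the tables share no skipped exon event over all comparisons, had means of 122.9 and 80.2 scaled reads in EPI control and knockdown cells over 2 events, with overlapping ranges of 85.6 to 153.0 and 37.9 to 128.0. DHX58, DDX60L and DDX60 were chosen for display after their values were seen.

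**Figure D3:**
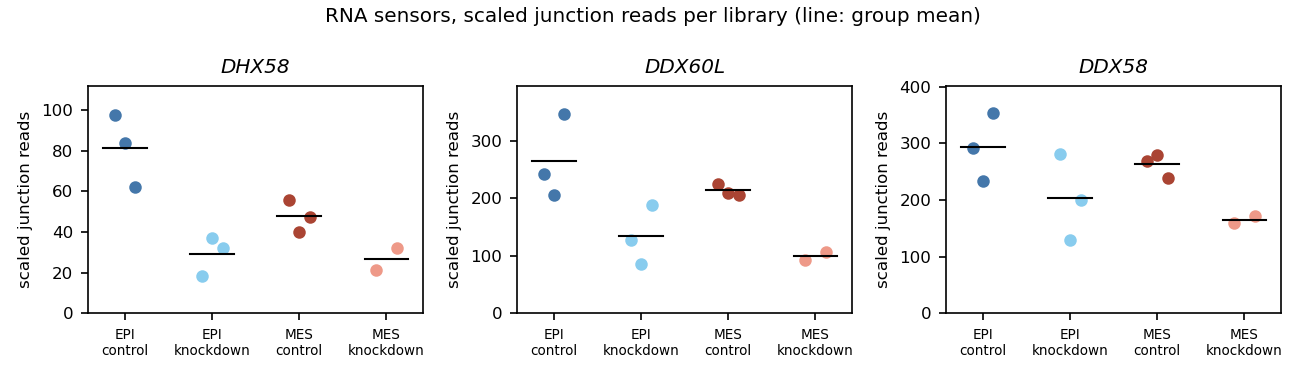
Scaled junction reads (y axis) of the RNA sensors DHX58, DDX60L and DDX58, with 1 point per library in the 4 RNA-seq groups (x axis) and a line at the group mean. The knockdown libraries lie below the control libraries of their own state, except in EPI cells for DDX58, where the values overlap.

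DDX41, a spliceosomal helicase also known as a DNA sensor, read 453.4, 652.3 and 542.8 in EPI control and 731.8, 1105.9 and 764.7 in EPI knockdown cells. These groups did not overlap. The log2 change was 0.65 ± 0.20 (limma adjusted p = 0.258, or 0.0278 with the block). The second listed knockdown library, which stood apart over all genes, was the highest, and without it alone the unblocked change was 0.46 (adjusted p = 0.247). The co-regulators stayed close to 0 in EPI knockdown cells (DDX5 0.09 ± 0.21, DHX9 0.01 ± 0.16 and DDX17 -0.14 ± 0.17), as did DDX39B (0.12 ± 0.14), DHX15 (0.01 ± 0.15), DDX21 (0.10 ± 0.18), DDX3X (-0.17 ± 0.20), DDX6 (-0.12 ± 0.14) and DHX36 (-0.06 ± 0.26). EPI groups did not overlap for 6 of the 41 helicases, against 14.1% of all genes.

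In MES cells 0 of 41 helicases passed the adjusted p after AKAP8 knockdown by limma, against 4.16% of all genes, or 2.27% that also changed over 2-fold. At an unadjusted p under 0.05 there were 4 higher and 6 lower, against 1003 and 960 of all 9014 genes. The values leaned downwards, with 27 of 41 below 0 and a median of -0.22 against -0.01 for all genes. Control and knockdown values did not overlap for 26 of the 41 helicases, against 45.1% of all genes. Scaling by total reads moved the median of all genes by -0.12, and the helicase median was then -0.34 against -0.14. FN1 had means of 3897000 scaled reads in MES control and 5177000 in MES knockdown cells, with overlap. Its part in this shift was not tested either.

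The 5 helicases of translation and mRNA decay were all below 0 in MES knockdown cells, from -0.60 to -0.22, and the groups did not overlap for any of them. DDX3X stood at 9723.0, 7765.2 and 7568.6 in MES control and 5603.4 and 5350.6 in MES knockdown cells. Its log2 change was -0.60 ± 0.22 (limma adjusted p = 0.14), the largest of the 5, ahead of DHX36 (-0.40 ± 0.29) and DDX6 (-0.22 ± 0.15). In EMT the same 5 genes had values above 0 (4 of them by total reads), but both comparisons use the MES control libraries, so the values are only set side by side. DDX5 (-0.29 ± 0.23), DHX9 (-0.30 ± 0.18), DDX17 (-0.32 ± 0.19) and DDX21 (-0.30 ± 0.20) also had values below 0 and did not pass.

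Spliceosomal helicases went both ways in MES knockdown cells, with 5 of 9 above 0 and 4 below, or 3 above and 6 below by total reads. DHX15 read 3359.0, 3242.6 and 3445.5 in the controls and 2371.9 and 2503.9 in the knockdown, and DDX46, the human Prp5, read 2337.6, 2120.6 and 2464.2 against 1578.4 and 1465.8. DHX38, the human Prp16 of the second splicing step, read 881.2, 849.7 and 810.5 in the controls and 1238.2 and 1196.0 in the knockdown. The DHX15 and DDX46 values were lower and the DHX38 values higher without overlap, at log2 changes of -0.46 ± 0.17, -0.60 ± 0.26 and 0.52 ± 0.17, but their limma adjusted p-values were 0.134, 0.21 and 0.105. DHX35 (0.67 ± 0.22, adjusted p = 0.104) was also above 0, and DDX39B stayed near 0 (0.10 ± 0.15).

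Among the ribosome assembly helicases, DDX49 read 1001.7, 995.5 and 689.3 in MES control and 1557.3 and 1433.8 in MES knockdown cells, and DDX54 667.5, 617.1 and 615.5 against 818.4 and 1223.0. Both sets of values were higher without overlap. Their log2 changes were 0.76 ± 0.21 and 0.66 ± 0.21 (limma adjusted p = 0.0648 and 0.0921). The MES genes named beyond DDX5, DDX17, DHX9, DDX3X, DDX6, DDX39B, DHX15, DDX21, DDX58 and DHX36 were chosen after their values were seen. The difference between both knockdown effects was also tested, and 0 of 41 helicases passed by limma, against 0.0111% of all genes. DDX54 (0.62 on the log2 scale) was the single member at an unadjusted p under 0.05, against 590 of all 9014 genes.

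The third question was whether splicing of the helicases themselves moved. Inclusion was measured as percent spliced in (PSI), the share of transcripts that hold the alternative segment, from the reads corrected for the length of each form. An event was tested at 20 or more junction reads per library on average with a quasi-binomial F test moderated by limma, and was called at an adjusted p of 0.05 and a change of at least 10 points. Most helicase exons were nearly always included. In EPI control cells, 88.9% of 234 tested skipped exon events had a PSI over 95, against 79.3% of events in all genes, and 4.7% lay between 10 and 90, against 10.1%.

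After AKAP8 knockdown in EPI cells, 0 of 335 helicase events were called and 0 passed the adjusted p by this test. Over all events the shares were 0.0492% and 0.0877%. At an unadjusted p under 0.05 there were 10 of the 335, against 3092 of all 65008 events. In MES knockdown cells 0 of 323 were called, against 0.054%, and 1 passed the adjusted p, against 0.086%. There 8 had an unadjusted p under 0.05, against 2302 of all 59288 events. In EMT 1 of 367 was called, against 1.59%, and 2 passed the adjusted p, against 2.74%. Here 29 had an unadjusted p under 0.05, against 7845 of all 67451 events. The median size of change was 0.69 points in EMT for the helicases and 0.93 points for all events. The difference between both knockdown effects was past the adjusted p for 0 of 213 events by the same test, against 0.00734% of all 40867 events, and 12 of the 213 and 2753 of all had an unadjusted p under 0.05.

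The called event was an exon of DDX42 at chr17:61852468-61852538 on the plus strand (GRCh37), 71 nt long. It is an exon of the untranslated region in 1 annotated transcript and lies in an intron of the canonical transcript. Its PSI was 7.9%, 11.9% and 13% in EPI control and 23.5%, 26.1% and 15% in MES control cells. The MES values were all higher, with the third listed library closest to the EPI values. The rise was 10.59 points (limma-moderated F test, adjusted p = 0.0278) over 217.7 reads per library on average. It did not hold up well: with limma on the logit of PSI the adjusted p was 0.446, and it was 0.0592 to 0.373 without each library except the third listed MES control, whose absence gave 0.00315. In knockdown cells the exon stood at 12%, 7.2% and 14.3% in EPI and 29.4% and 17.4% in MES, overlapping the controls of each state.

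DDX39B, a core ATPase of spliceosome assembly and mRNA export, had an alternative 3′ splice site past the adjusted p in MES knockdown cells. This event was named after its values were seen. The segment at chr6:31508312-31508441 on the minus strand (GRCh37) is 130 nt of untranslated region in the canonical transcript. The long form, which uses the upstream acceptor, made up 70.0% and 69.8% in the MES controls of that table and 61.7% and 59.1% in the MES knockdown. All knockdown values were lower, with a difference of -9.51 points (limma-moderated F test, adjusted p = 0.000521) at 2109 reads per library. With the third MES control, at 71.1%, the difference was -9.91 points (adjusted p = 0.00874). Without the first or the second listed control, which left 1 control library in the table, the difference was -9.40 and -9.63 points. The change did not pass with limma on the logit of PSI (adjusted p = 0.929). By that test 8 of all 59288 events passed, against 51 by the main test.

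In EPI cells the DDX39B long form stood at 67.6%, 58.8% and 66.7% in the controls and 63.1%, 61.9% and 67.0% in the knockdown. These values overlapped, with a difference of -0.32 points (adjusted p = 0.978). The MES change minus the EPI change was -9.20 points (adjusted p = 0.45). The end of the intron at both acceptors is given 5′ to 3′, since the event is a choice between them, and capitals mark the AG at which each is cut.
DDX39B upstream acceptor: ttttcccccctccAG
DDX39B downstream acceptor: cccctgccggcccAG
DDX42 exon acceptor: cgtatacacacccAG
The upstream DDX39B acceptor carries a run of pyrimidines with no break before its AG, whereas purines interrupt the downstream tract and that of the DDX42 exon. These sequences are the reference genome's.

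DDX5 had a rare exon past the adjusted p in EMT, at chr17:62497175-62497261 on the minus strand (GRCh37), 87 nt. This exon was named after its values were seen. Its PSI was 2.4%, 0.7% and 2.4% in EPI and 0.3%, 0.6% and 1.5% in MES control cells. The groups overlapped, and the change was -1.06 points (limma-moderated F test, adjusted p = 0.00299, or 0.475 with limma on the logit of PSI). The exon lies within a DDX5 intron that is often retained, at chr17:62496892-62498127, with a retained share of 31%, 24.7% and 46.6% in EPI and 11.6%, 20.5% and 31.9% in MES control cells. These groups overlapped too, at -12.74 points (adjusted p = 0.639).

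The widest tested change in PSI among the named events was in DDX19B, an ATPase that releases export factors from mRNA at the nuclear pore. Its exon at chr16:70348805-70348858 on the plus strand (GRCh37) is 54 nt of coding sequence and keeps the reading frame. PSI was 51.0%, 43.7% and 52.5% in EPI control, 67.7%, 65.8% and 70.1% in EPI knockdown, and 72.5%, 74.9% and 68.7% in MES control cells. The EPI control values lay under all others. The differences were 18.77 points for the knockdown in EPI cells (adjusted p = 0.705) and 22.93 points for EMT (adjusted p = 0.143), at 54.67 and 61.17 reads per library, so neither passed. Both differences use the same EPI control libraries. In MES knockdown cells the exon stood at 78.8% and 63.3%, on both sides of the controls of that table. DDX19A is a close paralog of DDX19B, and reads that match both copies may have been dropped or misplaced.

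DHX30, a helicase of mitochondrial ribosome assembly, has a 29 nt exon at chr3:47860726-47860754 on the plus strand (GRCh37). It is short enough to show whole, with 15 nt of intron on each side and the exon in capitals.
DHX30 exon: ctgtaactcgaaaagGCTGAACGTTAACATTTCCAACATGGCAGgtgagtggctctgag
Its PSI was 3.0%, 0.0% and 10.2% in EPI control and 31.1%, 19.9% and 4.2% in MES control cells. The third library of each list broke the separation, and the change of 13.95 points had an adjusted p of 0.103 at 47.67 reads per library. Without the third listed MES control library it was 21.06 points (adjusted p = 0.0219). EPI knockdown cells stood at 16.3%, 14.8% and 7.0%, which overlapped their controls.

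Retained introns of 4 helicases had an unadjusted p under 0.05 and were named after their values were seen. A DDX39A intron at chr19:14520686-14521027 (minus strand, 342 nt) was retained in 19.2%, 22.0% and 19.9% of transcripts in EPI control, 12.9%, 10.7% and 16.7% in EPI knockdown, and 9.5%, 8.5% and 15.6% in MES control cells. The EPI control values were the highest, and the differences were -6.93 points for the knockdown (adjusted p = 1.0) and -9.16 points for EMT (adjusted p = 0.218). A DDX41 intron at chr5:176943449-176943725 (minus strand) was retained in 6.1% and 8.7% in MES control and 3.0% and 2.1% in MES knockdown cells, without overlap, at -4.85 points (adjusted p = 0.094). A DDX17 intron in the MES knockdown comparison (-6.19 points, adjusted p = 0.487) overlapped between groups, and a DDX23 intron (2.52 points, adjusted p = 0.515) did not.

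**Figure D4:**
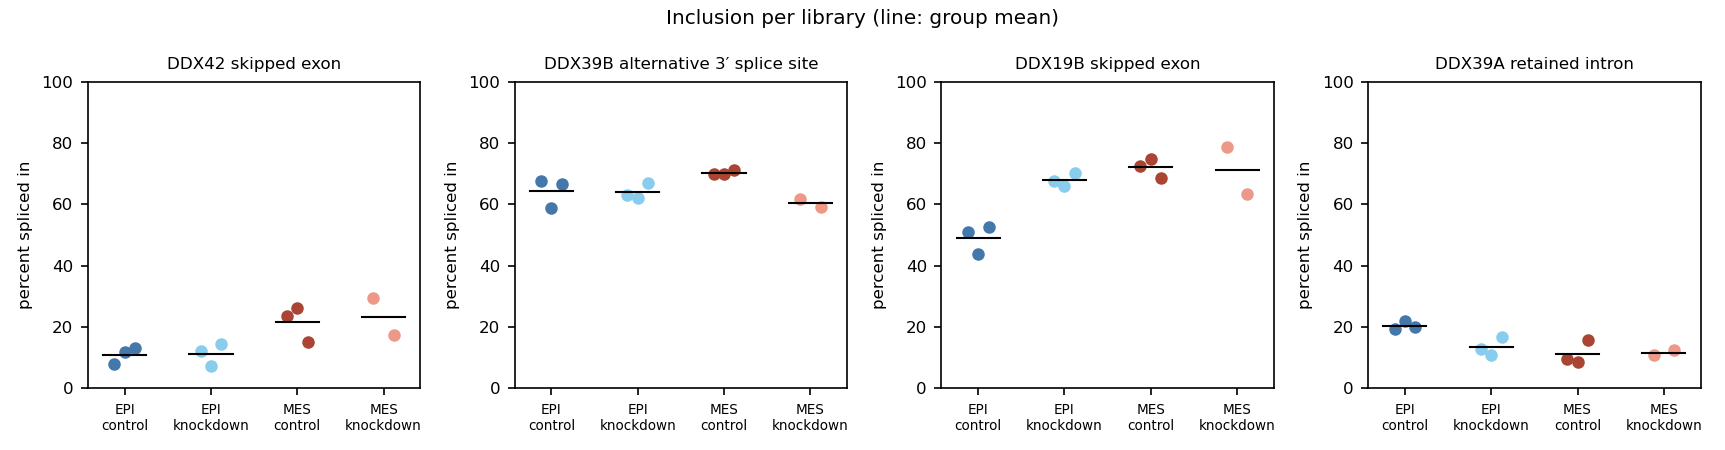
Percent spliced in (y axis, with 1 point per library and a line at the group mean) in the 4 RNA-seq groups (x axis) for the DDX42 exon, the DDX39B alternative 3′ splice site, the DDX19B exon and the DDX39A intron. The DDX19B exon lies at 43.7% to 52.5% in EPI control cells and at 63.3% or more in all other libraries.

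Events of a change of 10 points or more with the smallest unadjusted p also included 3 exons and an alternative 3′ splice site of DDX11, a helicase of sister chromatid cohesion. After knockdown in MES cells these were higher by 11.26, 10.23, 15.32 and 10.59 points, with adjusted p-values of 0.763 to 0.87 and 38.25 to 99.0 reads per library. The exons of 79 nt and 74 nt and the splice site (10.23, 15.32 and 10.59 points) overlap and share reads, whereas the exon of 87 nt (11.26 points) lies elsewhere in the gene. DDX11 has near-identical copies in the genome, so its reads are uncertain. In EMT a retained DDX11 intron differed by -13.19 points (adjusted p = 0.647) and the exon of 74 nt by -10.02 points (0.283). The remaining named events had adjusted p-values of 0.763 or more: a pair of mutually exclusive exons of DDX31 (-10.83 points) and a retained intron of DDX26B (-14.40 points) in EPI knockdown cells, and the exon of 136 nt of DDX19B (-15.11 points, 29.5 reads per library) in MES knockdown cells.

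The last question was where AKAP8 was bound on helicase transcripts. Peaks were kept at the authors' threshold, a log2 of immunoprecipitated over input reads of at least 2 and a −log10 p of at least 3, which left 21665 peaks in EPI and 26228 in MES cells. The authors merged both replicates of each state, so peaks have no replicate error. In EPI cells 17 peaks lay over 8 of the 49 helicases (16.3%), against 20.5% of the genes with a tested level. In MES cells 3 peaks lay over 2 helicases (4.08%), against 12.6%. Overlapping peaks fell into 14 regions, of which 2 held peaks of both states. Helicases with a peak in EPI cells were DDX1, DDX3X, DDX5, DDX17, DDX26B, DDX39A, DHX8 and DHX30, and in MES cells DDX3X and DHX8. At this threshold the peaks over DDX1, DDX5, DDX17, DDX26B, DDX39A and DHX30 were listed for EPI cells alone, and no test between the states was made.

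Of the 14 regions, 7 lay in or reached into the first intron of the canonical transcript and 6 were centred within 1500 nt of its start; the same shares over all AKAP8 peaks were not computed. The strongest peak was in DDX1, a helicase of tRNA ligation and RNA transport, at chr2:15753192-15753231 on the plus strand (GRCh37), in intron 13 and 116 nt before its 3′ splice site, with a log2 of 4.42. DDX3X had the next, at chrX:41193680-41193724 on the plus strand, 129 nt into intron 1, with a log2 of 4.32, and a weaker one with 3.86 in EPI and 3.67 in MES cells. In DDX5, peaks of 3.98 and 3.96 lay in intron 1, the latter at chr17:62501802-62501849 on the minus strand. In DDX39A, peaks of 3.67 and 3.44 lay in intron 1, the latter at chr19:14524141-14524230, 104 nt before the next exon.

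Sequences of these peaks are printed 5′ to 3′ on the transcribed strand of the reference genome, to show their letters beside the binding values, and capitals mark every run of 3 or more G.
DDX1 intron 13: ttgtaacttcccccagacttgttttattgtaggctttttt
DDX3X intron 1: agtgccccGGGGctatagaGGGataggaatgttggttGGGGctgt
DDX5 intron 1: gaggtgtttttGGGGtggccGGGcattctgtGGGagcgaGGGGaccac
DDX39A intron 1, outer: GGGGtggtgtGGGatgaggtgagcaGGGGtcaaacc
DDX39A intron 1, inner: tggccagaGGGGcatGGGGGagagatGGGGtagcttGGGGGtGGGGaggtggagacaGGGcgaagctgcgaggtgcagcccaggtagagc
DDX17 first exon and intron: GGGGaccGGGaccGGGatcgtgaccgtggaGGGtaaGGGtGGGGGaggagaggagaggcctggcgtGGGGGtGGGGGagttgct
DHX8 region of both states, MES peak: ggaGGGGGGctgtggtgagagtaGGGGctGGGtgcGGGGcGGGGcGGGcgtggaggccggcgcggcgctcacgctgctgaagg

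The DDX1 peak, the strongest, was the single helicase peak in EPI cells with no run of GGG. The other 16 of 17 peaks in EPI and 3 of 3 in MES cells held GGG on the transcribed strand, against 97.3% and 95.8% of all peaks. GC content ran from 35.0% in DDX1 to 79.7% in DHX8, with a median of 64.6% in EPI cells against 67.3% for all EPI peaks. Their binding was of usual strength, with a median log2 of 3.54 in EPI and 3.59 in MES cells, against 3.78 and 3.49 for all peaks.

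In DDX17 peaks of up to a log2 of 3.37 spanned the end of the first coding exon and the start of intron 1, at chr22:38901817-38901987 on the minus strand. The DHX8 peaks need a separate word. DHX8 is the human Prp22, which frees spliced mRNA, but its 4 regions at chr17:41622198-41623129 lay 60902 to 61759 nt after the canonical transcript's start and past its end, within introns of 2 longer transcripts and opposite ETV4, a gene on the minus strand. They reached log2 values of 3.61 in EPI and 3.59 in MES cells. The peaks in DHX30 (3.18, intron 6) and DDX26B (3.54, intron 2) completed the list. DHX8, DDX17, DHX30 and the inner DDX39A peak were described after their values were seen.

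**Figure D5:**
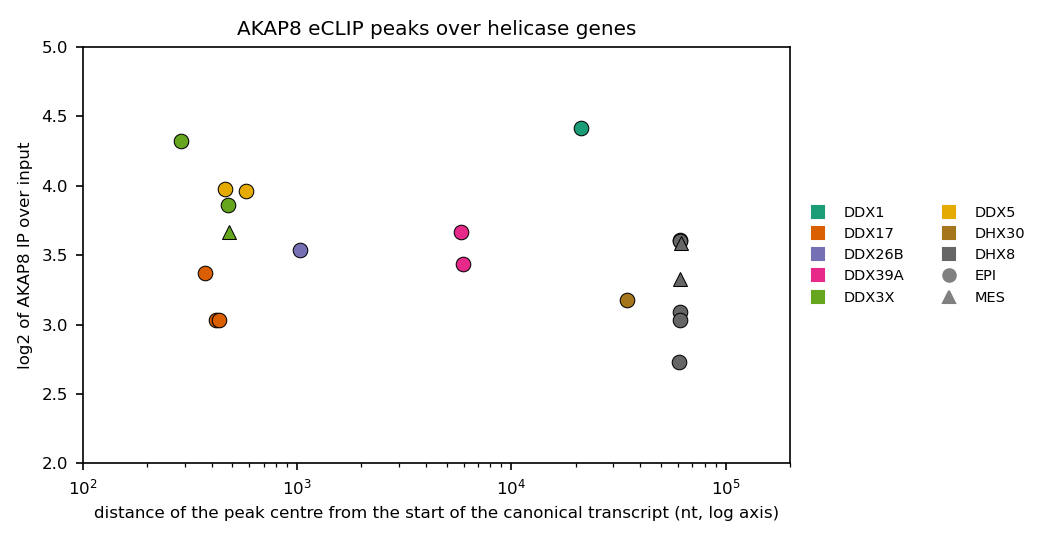
Log2 of AKAP8 immunoprecipitate over input (y axis) of each helicase peak against its distance from the canonical transcript start in nt (x axis, log scale); circles are EPI and triangles MES peaks, and colours mark the gene. Peaks of DDX5, DDX17, DDX26B and DDX3X lie within 1500 nt of the start, and the DHX8 peaks lie farthest away.

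No named splicing event had a peak within 1000 nt in either state. Of the 471 helicase events tested in any comparison, 9 lay within 1000 nt of an EPI peak and 0 within 1000 nt of an MES peak. None of the 9 passed the adjusted p. The skipped exons among them had a mean PSI of 99.23% or more in each group compared. The share of all events that lie near a peak was not computed. The exon after the DDX1 peak, at chr2:15753348-15753408, had a PSI of 99.53% in EPI control and 99.23% in EPI knockdown cells, a difference of -0.30 points (adjusted p = 0.825). DDX5, DDX17, DDX39A and DDX3X, all with a peak in the first intron or at its edge, had EPI knockdown log2 changes of level between -0.17 and 0.09, except DDX39A, whose level from all event types had 0.27 ± 0.16 (adjusted p = 0.649).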

How the data were processed

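RNA-seq reads were aligned by the authors to GRCh37 with STAR 2.6.1a, keeping uniquely mapped reads, and counted per annotated splicing event with rMATS. The 15 deposited tables (5 event types in 3 comparisons) give, per library, how many junction reads include or skip the segment, as the authors' unscaled counts, and only these and the effective lengths were used. The 30 deposited columns of PSI per library, and the authors' p-values and differences, were not used. A gene table that the authors made using featureCounts 1.5.0 and DESeq2 was not used, because its symbols are whole numbers and several value columns are constant. The eCLIP peak files hold the authors' log2 of immunoprecipitate over input and −log10 p, on replicates they merged. Peaks were kept at a log2 of at least 2 and −log10 p of at least 3, and placed with a Gencode annotation on GRCh37 newer than the authors' own.

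PSI was recomputed from the reads and effective lengths. A quasi-binomial model per event, with dispersions moderated by limma 3.58.1 (R 4.3.3) on the reads of the rarer form, gave p-values that were adjusted per event type. Gene levels were summed over 33107 skipped exon events present in all 3 comparisons, divided by median-of-ratios size factors, kept at 10 or more in at least 2 libraries, and tested with limma and a mean trend on log2(value + 1). Differences are knockdown minus control and MES minus EPI. EPI controls are the same libraries in both tables that hold them (100% of 44899 skipped exon events have the same counts). EMT and EPI knockdown values are thus not independent. For splicing, EMT and MES knockdown likewise share 2 MES controls. For gene levels they share all 3 MES controls. With the mutually exclusive exons of a minus-strand gene, the inclusion form is the second exon listed.

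Libraries at the same place in the EPI lists correlated in their deviations (r = 0.282, 0.58 and 0.493), and a block per place was therefore fitted; pairing comes from this check, since no label names a shared batch or day. The same check gave 0.079, 0.184 and 0.265 for EMT and 0.173 and 0.022 for MES knockdown. With 3 libraries against 3 a permutation test cannot go below a two-sided p of 0.1, and with 2 against 2 below 0.333, so models that share the spread across genes or events were used. Both models were tested on simulated data. A first simulation of the splicing test, with a single correlation between reads for all events, found few of the planted shifts. In a second simulation, with dispersions from the fitted events, most were found. That recovery holds only for the shifts planted there. The power of the splicing test for the helicase events, at their own PSI and read numbers, was not tested. The second simulation replaced the first. The unmoderated dispersions of the real data bear on this choice: in EPI cells, events with 31 to 100 reads of the rarer form had a mean dispersion of 2.31 when balanced and 2.35 when not, whereas the correlation that a constant value would need was 0.04 and 0.008.

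The helicases and all gene lists were chosen with earlier results of these data known. Named genes were those past both cutoffs, up to 8 past the adjusted p by size of change, and 10 well-studied members; named events were called ones and up to 5 more per comparison by p among changes of at least 10 points; named peaks were the 6 strongest per state. Other names were added after values were seen and are marked so. Of the genes named, DHX58, DDX60L, DDX41, DDX49, DDX54, DHX38, DHX35 and DDX46 in the knockdowns and DDX39A in EMT are such additions. Of the events named, the DDX39B splice site, the DDX5 exon and the retained introns of DDX39A, DDX41, DDX17 and DDX23 are. Alternatives were other scalings, pseudocounts, filters, tests, the block and each library left out.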

Additional observations from a re-analysis of the deposited data

How the results depend on the processing

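No helicase passed both the adjusted p and 2-fold at gene level in the main fits, and the count stayed at 0 with all 5 event types, total-read scaling, a pseudocount of 10 or no filter in all 3 comparisons. Without the fold cutoff the EMT count was 6. Leaving out a library gave 0 to 1 in EMT. The number past the adjusted p alone ran from 2 to 6, against 1351 to 1998 of all genes. The EPI knockdown, and the MES knockdown without a control library, gave 0 to 0 for either count. The replicate block by place in the list gave 2 past both cutoffs and 3 past the adjusted p in EPI, and 1 and 7 in MES knockdown cells, where DDX3X, DDX49, DDX54, DDX60L, DHX15, DHX35 and DHX38 passed; over all 9014 genes the MES count past the adjusted p went from 375 to 1426. With the block in EMT 7 of 41 helicases passed the adjusted p and 0 both cutoffs, against 2670 and 1183 of all 9014 genes. The places are not shown to pair the MES or EMT libraries, and the cause of these shifts was not tested. The helicase median in EPI knockdown cells, 0.04, reversed to -0.011 and -0.029 without the first or the third listed knockdown library, and was 0.085 without the second.

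For splicing, dropping the limit on the change gave 1 event in MES knockdown and 2 in EMT. With limma on the logit of PSI 0 helicase events passed the adjusted p in MES knockdown, against 8 of all 59288 events. In EMT 0 were called and 0 passed the adjusted p, against 543 and 1546 of all 67451 events. The replicate block on skipped exons in EMT also gave 0 and 0, against 208 and 247 of all 49330. Leaving out a library gave 0 to 4 called and 0 to 7 past the adjusted p in EMT, where 1006 to 2132 of all events passed. The highest counts came without the third listed MES control, when DDX17, DDX39A, DDX5, DHX30 and DHX57 events also passed. In EPI knockdown leaving out a library gave 0 to 0. In MES knockdown it left 1 library in an arm, so no counts are given. At a log2 of at least 4, 2 helicase peaks were left in EPI and 0 in MES cells. Of the alternatives for the main counts 114 stayed within 1.5 times the main value and 37 did not. Many main counts were 0, and such a count stayed only by being 0 again, so the tally does not measure stability. The DDX19B and DHX30 exons had 61.17 and 47.67 reads per library in EMT, and the part of depth in their missed calls was not tested.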

Other observations

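After the values of the RNA sensors were seen, a list of 32 interferon-stimulated genes was drawn up, of which 12 had a tested level. In EPI knockdown cells 9 of the 12 were below 0, with a median of -0.26 against -0.01 over all genes, and 0 passed by limma. At an unadjusted p under 0.05 there were 4, all lower, against 474 lower and 415 higher of all 9014 genes. TRIM22 (-1.54, adjusted p = 0.0689) and MX1 (-1.40, adjusted p = 0.367) had the lowest values. With the block 1 of the 12 was lower, against 3.06% of all genes in either direction. In MES knockdown cells 8 of 12 were below 0, with a median of -0.35, and 1 of 12, PARP14, fell (-0.96, limma adjusted p = 0.0446), against 4.16% of all genes. With the block 4 were lower and 1 higher, against 15.8% of all genes in either direction. IFI44 had -1.10 (adjusted p = 0.0818), but IRF7, a transcription factor of the interferon response, had 1.76 (adjusted p = 0.0874). In EMT 4 of the 12 passed both the adjusted p and 2-fold, against 12.5% of all genes: 2 rose, IFI44 (1.02) and TRIM22 (1.08), and 2 fell, IRF7 (-1.80) and HERC6 (-1.12).

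Among helicases of the same superfamily with other symbols, YTHDC2, a helicase that binds m6A in RNA, had the lowest value in MES knockdown cells (-1.08), with DICER1 at -0.80 and EIF4A2 at -0.44. Each had an unadjusted p under 0.05, as did 1963 of all 9014 genes, and none passed the adjusted p.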
